A study of Homo sapiens with 66 samples.

Results

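Histone genes are the protein-coding genes that GENCODE names as H1, H2A, H2B, H3, or H4 genes of the numbered families (H1-5, H2AC6, H2BC11, H3C12, H4C8 and the like). They were chosen by name alone and matched to the gene count tables by Ensembl identifier without its version. Of 57820 genes in the tables, 38 were found, namely 10 H1, 8 H2A, 11 H2B, 5 H3, and 4 H4 genes. A further 31 genes of these names had identifiers that did not match and were not analysed here. The data are RNA-seq counts of Cas9-transgenic THP-1 cells, a human monocytic leukemia line, after nucleofection of gRNAs. In study 1, a STING-deficient single clone received the nontarget gRNA (CTRL) or gRNAs against GFP, HNRNPC (hnRNPC), ADAR, or both (ADAR+hnRNPC), with 3 libraries per group on each of days 3, 4, and 5, and CTRL cells treated with recombinant IFN-α were sequenced on day 4. In study 2, a wild-type clone received other gRNAs against the same genes and was sequenced on day 4, with 2 libraries per group. Study 2 held total and cytosolic (digitonin-soluble) RNA of CTRL, hnRNPC-, ADAR-, and ADAR+hnRNPC-targeted cells, and nuclear RNA (the digitonin-insoluble part, which also holds mitochondria) of hnRNPC-targeted cells. Cells targeted at a single gene also received a nontarget gRNA. Both studies depleted ribosomal RNA and did not select poly(A) tails, so that transcripts without a tail were kept.

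Nucleosomes wrap DNA around the core histones H2A, H2B, H3, and H4, and linker histones of the H1 family bind the DNA between them. Most genes of these families are replication-dependent: they lie in clusters, are transcribed in S phase with the coactivator NPAT, and give short mRNAs that end in a conserved stem-loop in place of a poly(A) tail. The stem-loop binding protein SLBP holds this end, the U7 snRNP directs its cleavage, and the mRNAs are degraded when DNA synthesis stops. H1-10 lies outside the clusters and gives polyadenylated mRNAs.

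In GRCh37, 23 of the 38 genes lay in the HIST1 cluster (chr6:25723625-27860884), 7 in the HIST2 cluster (chr1:149754245-149859515), 2 in the HIST3 cluster (chr1:228622478-228650805), and 6 elsewhere. The genome sequence was searched for the letters of the stem-loop, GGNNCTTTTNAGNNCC, on the coding strand within 100 bases after the stop codon. They were present in 33 of 38 histone genes, and in 66 of 20047 protein-coding genes (0.329%), 61 of which carry histone names of the same families. Among the genes without them were H1-7, H1-8, H1-10, and H2BC12L. Stem-loops of genes on which the results turn are shown 5′ to 3′, with the 4 bases of the loop in capitals and the stem on both sides in lower case.
H2AC25 (chr1:228645070-228645085, minus strand, 40 bases after the stop codon): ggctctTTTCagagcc
H2BC26 (chr1:228646239-228646254, plus strand, 27 bases after the stop codon): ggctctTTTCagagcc
H2AC6 (chr6:26124897-26124912, plus strand, 43 bases after the stop codon): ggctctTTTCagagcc
H1-6 (chr6:26107645-26107660, minus strand, 37 bases after the stop codon): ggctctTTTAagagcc
H2BC11 (chr6:27100100-27100115, minus strand, 33 bases after the stop codon): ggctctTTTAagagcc
H4C16 (chr12:14923658-14923673, minus strand, 33 bases after the stop codon): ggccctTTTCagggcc
The stem was the same in H2AC25, H2BC26, H2AC6, H1-6, and H2BC11, and differed in H4C16, while the last base of the loop was C or A.

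Promoters (250 bases before to 50 after the start, RefSeq, GRCh38.p14) were matched for 34 of the 38 genes, and H4C3, H3C12, and H2BC12L were among those with no entry. The octamer ATTTGCAT, searched on both strands and known from H2B promoters as the binding site of OCT1, was found in 13 of 34 (38.2%), against 1.77% of all 35116 promoters. By family, it was found in 6 of 10 H2B and 6 of 8 H2A promoters, 1 of 4 H3, 0 of 9 H1, and 0 of 3 H4. Some H2A and H2B genes, such as H2AC6 and H2BC4, start close together and are read away from each other. The same octamer may then be counted for both genes of a pair. CCAAT was found in 88.2% of the histone promoters against 34.6% of all, and TATAAA in 64.7% against 11.5%. The surroundings of the octamer, in capitals, are shown for H2BC11, which was called higher with combined targeting, and for H2BC12 and H2BC4, the H2B genes with the most counts.
H2BC11: ttcaccttATTTGCATaagcgatt
H2BC12: ttcaccttATTTGCATgagaggtc
H2BC4: catacctcATTTGCATagctctgc
H2AC25 and H2BC26, a pair of genes that start close to each other in the HIST3 cluster and are read away from each other, hold CCAAT but neither the octamer nor TATAAA in this window.

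Gene counts per library ranged from 95107690 to 152829008 in study 1 and from 49666958 to 73873756 in study 2. Histone genes held 375927 to 739792 of them (0.327 to 0.625%) in study 1 and 107891 to 409985 (0.195 to 0.630%) in study 2. Of the 38 genes, 24 passed the filter on low counts in study 1 and 28 in study 2. H1-1, H1-7, H1-8, H2AC1, H2AC7, H2AC20, H2AC21, H2BC1, H3C13, and H3C15 passed in neither, and H2BC12L, H2BC18, H2BC21, and H3C14 passed in study 2 only. Markers of the monocytic lineage were present in every group, with group means of 47.0 to 134 CPM for SPI1 and 31.0 to 70.8 CPM for CD33, but CD14 was at 0.147 to 3.61 CPM and CD68 at 0 to 0.195 CPM. Targeting was checked first in HNRNPC itself. Its mRNA was at 725 to 869 CPM in the CTRL libraries of study 1 and at 312 to 381 CPM in those of hnRNPC-targeted cells, without overlap. ADAR mRNA was not called lower in ADAR-targeted cells of study 1 (log2 fold change −0.03, SE 0.0802, edgeR quasi-likelihood adjusted p = 0.853 on day 5), so the labels cannot be checked this way. The label of ADAR targeting in study 2 went with a log2 fold change of ADAR of −0.77 (SE 0.158, edgeR adjusted p = 0.00469). In ADAR+hnRNPC-targeted cells of study 1 on day 5, ADAR, itself an interferon-induced gene, was 1.75 higher on the log2 scale.

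Linker histones gave the highest counts. H1-5 had 58093 to 115393 counts per library of study 1 (mean 706 CPM, counts scaled to a common total of gene counts with TMM factors), H1-2 had 44531 to 122711 (543 CPM), and H1-4 had 40169 to 74076 (449.9 CPM). In the H2A family the leading genes were H2AC11 (225 CPM), H2AC13 (141 CPM), and H2AC6 (113 CPM), and in the H2B family H2BC12 (247 CPM), H2BC4 (214 CPM), and H2BC5 (188 CPM). H4C3 (239.7 CPM) and H4C8 (146 CPM) led the H4 family with H4C16 (23.2 CPM), and H3C4 (106 CPM) and H3C12 (96.0 CPM) the H3 family, in which H3C14 was at 0.577 CPM. CPM are not scaled by gene length, so levels of different genes were not compared by test. H1-10 (3078 to 10187 counts), a polyadenylated member, was within the range of the clustered genes. Coding sequences of histone genes are alike, and reads that fit several genes were not counted. For H3C14 and H3C15, 0% of windows of 100 bases were unique in the genome, for H4C11 13.9%, and for H2AC13 40.4%, so their counts, and less so those of H2BC18 (55.1%), H2BC12 and H2BC12L (76.5%), and H2BC26 (78.9%), cover only a part of the gene. Of windows of 150 bases, the read length of study 2, 0% were unique in H3C14 and H3C15 as well, so their counts may not be their own. H3C14 was at 0.577 CPM in study 1 and 20.2 CPM in study 2, and H4C11 at 1.77 and 19.3 CPM. The studies differ in clone, gRNAs, and read length, and the part of each in these differences was not tested. H2BC4 overlaps HFE, H4C3, and H1-6, H1-10 overlaps H1-10-AS1, H3C12 overlaps H2AC17, H2AC25 overlaps RPL23AP15, and H2BC18 overlaps FCGR1A. The use of strand in counting is not given in the sources used here, so that reads of such genes could not be separated.

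The next comparison asks which histone transcripts change when hnRNPC, an RNA-binding protein of the nucleus that binds uridine tracts of unspliced transcripts, is targeted. On day 3, 17 of 24 histone genes fell at an adjusted p of at most 0.05 and 0 rose, where 25.4% of all 13193 genes tested fell. All 4 H2A, all 7 H2B, both H3, 3 of 7 H1, and 1 of 4 H4 genes were among them. On day 4, 17 fell and 1 rose, where 28.0% of all genes fell and 23.4% rose. On day 5, 10 fell (35.2% of all genes) and 3 rose (29.6% of all genes): H1-6 (0.64), H2BC12 (0.41), and H2BC11 (0.20). The median log2 fold change of the histone genes tested was −0.43, −0.62, and −0.20 on days 3, 4, and 5, and that of all genes tested −0.05, −0.02, and −0.03. At a fold change of at least 2 as well ("called", log2 of at least 1 in size), 2, 5, and 1 histone genes were called lower on the 3 days and 0 higher, where 1.04, 3.22, and 7.72% of all genes were called in either direction. In total RNA, fewer cells in S phase and less histone RNA per cell cannot be told apart. All comparisons with CTRL of a day share the same 3 CTRL libraries.

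H2BC26 and H2AC25 had the largest decreases of the histone genes tested on days 3 and 4. H2BC26, an H2B gene, had 6415, 6754, and 6604 counts in the CTRL libraries of day 3. It had 8386, 9164, and 9830 in those of day 4 and 5657, 5884, and 7008 in those of day 5. The day 3 libraries with hnRNPC targeting held 2638, 3159, and 3070 counts, those of day 4 held 1277, 2040, and 2383, and those of day 5 held 1440, 1444, and 1749. Every hnRNPC library was below every CTRL library. In CPM the means were 68.2 ± 7.97 (SD, n = 3) in CTRL and 12.9 ± 3.40 (SD, n = 3) with hnRNPC targeting on day 4. Log2 fold changes of H2BC26 were −1.43 (SE 0.137, edgeR adjusted p = 1.25e-10), −2.40 (SE 0.141, adjusted p = 1.03e-16), and −2.07 (SE 0.141, adjusted p = 2.07e-15) on days 3, 4, and 5. H2BC26 was thus the histone gene that was called on each day.

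H2AC25, the H2A gene beside it, had 1302, 1911, and 1838 counts in CTRL libraries of day 3, 3405, 3460, and 3904 in those of day 4, and 1455, 1296, and 1661 in those of day 5. The CTRL libraries of day 4 were thus higher than those of days 3 and 5. With hnRNPC targeting the counts of H2AC25 were 803, 823, and 950 (day 3), 578, 837, and 1118 (day 4), and 1201, 850, and 995 (day 5). Again the groups did not overlap on any day. The log2 fold changes were −1.24 (SE 0.253, edgeR adjusted p = 0.000175), −2.23 (SE 0.257, adjusted p = 3.76e-09), and −0.61 (SE 0.250, adjusted p = 0.0327).

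The other genes called lower on day 4 were H2AC6, H2BC13, and H4C16. H2AC6 fell from 15950, 18125, and 17380 counts to 7097, 8930, and 10064 (log2 fold change −1.12, SE 0.101, edgeR adjusted p = 1.29e-11). H2BC13 fell from 11751, 13080, and 12997 counts to 5060, 7186, and 7763 (−1.06, SE 0.0996, adjusted p = 3.56e-11), and H4C16 from 2977, 3721, and 3418 to 1392, 2001, and 2090 (−1.01, SE 0.108, adjusted p = 6.91e-10). In each of these the groups were separate. The decreases of H2BC13 and H4C16 were close to the limit of a 2-fold change, and without CTRL replicate 1 or hnRNPC replicate 1 of day 4 they were −0.95 and −0.92 for H2BC13 and −0.95 and −0.87 for H4C16. Without either library, 3 genes were called. H4C16 was also below a 2-fold change in DESeq2 (−0.99) and without TMM scaling (−0.97). H1-10 was at 0.19 on day 3, which did not pass the test, and was not among the genes that fell on that day.

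**Figure D1:**
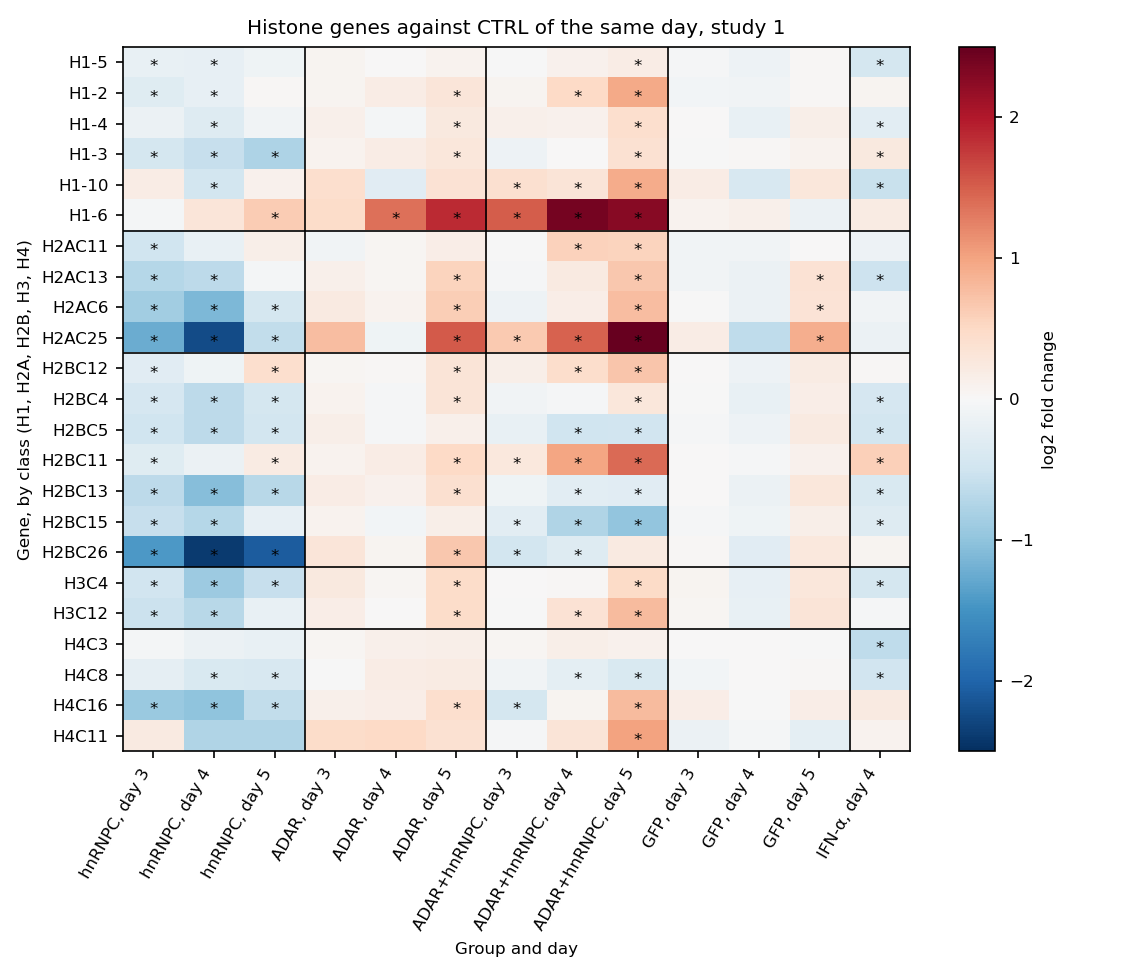
Log2 fold changes of the histone genes tested in study 1, all but 1 of 24, in rows by family, for each gRNA group against CTRL of the same day and for IFN-α on day 4, in columns; an asterisk marks an adjusted p of at most 0.05. In the columns of hnRNPC, 17, 17, and 10 genes fell on days 3, 4, and 5, and in the column of ADAR+hnRNPC on day 5, 17 of the genes shown rose and 4 fell.

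Targeting of ADAR, the enzyme that edits adenosine to inosine in double-stranded RNA, was compared with CTRL in the same way. On day 3, edgeR called 0 of 24 histone genes (0% of all genes), 6 had an unadjusted p under 0.05, all higher, and DESeq2 and voom called 0. On day 4, H1-6 was called (0.0682% of all genes were called). On day 5, 16 histone genes rose and 0 fell, where 4.45% of all genes rose, and 2 were called higher (0.273% of all genes). The median log2 fold change of the histone genes tested was then 0.38 and that of all genes 0.00. The 16 genes were 5 of 7 H1, 3 of 4 H2A, 5 of 7 H2B, both H3, and 1 of 4 H4. Without CTRL replicate 3 of day 5, 10 genes rose.

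H1-6, a linker histone known as the testis variant H1t, led this response from low counts. It had 378, 518, and 546 counts in CTRL libraries of day 5 and 1427, 1302, and 1276 with ADAR targeting, so that the groups lay far apart. Its log2 fold change was 1.37 on day 4 (SE 0.161, edgeR adjusted p = 3.66e-06) and 1.86 on day 5 (SE 0.162, adjusted p = 1.19e-09). H2AC25 rose on day 5 from 1455, 1296, and 1661 counts to 3573, 2863, and 3482 (1.54, SE 0.249, adjusted p = 0.000139). These counts were close to those of the CTRL libraries of day 4, which were 3405, 3460, and 3904. With the GFP gRNA, H2AC25 had 2356, 2205, and 1774 counts on day 5 and was also higher than in CTRL (0.90, SE 0.247, adjusted p = 0.0241).

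When both genes were targeted, histone genes moved in both directions on day 3 and mostly rose by day 5. On day 3, 5 of 24 rose (12.0% of all genes) and 3 fell (16.7%). On day 4, 9 rose (25.5% of all genes) and 5 fell (31.5%). On day 5, 18 rose (34.5% of all genes) and 4 fell (39.0%). The medians of the histone genes tested were −0.02, 0.15, and 0.62, and that of all genes was −0.04 on day 5. On the 3 days, 1, 3, and 5 histone genes were called higher and 0 lower, where 1.17, 4.71, and 15.6% of all genes were called. On day 5 this is 5 of 24 histone genes, near the share of all genes. By family, 7 of 7 H1, 4 of 4 H2A, both H3, and 2 of 4 H4 genes rose on day 5, and 3 of 7 H2B genes rose while 3 fell. Without CTRL replicate 1 or 3 or ADAR+hnRNPC replicate 1 or 3 of day 3, 2 to 3 rose on that day, and without CTRL replicate 1 or ADAR+hnRNPC replicate 1 or 2 of day 4, 2 to 3 fell on day 4. Without TMM scaling, 14 rose and 2 fell on day 4, and the median of all genes shifted up by 0.118 on day 4 and 0.108 on day 5. Under that scaling, 606 of all genes were called higher and 98 lower on day 4, against 451 and 170 with TMM, and 1482 and 575 on day 5, against 1241 and 821. ITGAM, a marker of monocytic differentiation, was 1.37 and 2.31 higher on the log2 scale on days 4 and 5. No other monocytic marker examined was called with combined targeting on these days. ITGAM was also called higher with hnRNPC targeting alone on day 5 (1.15), where more histone genes fell than rose. The part of ITGAM in these results was not tested.

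H2AC25 and H1-6 rose the most of the histone genes. H2AC25 had 8538, 8014, and 11284 counts on day 4 and 7628, 10431, and 11226 on day 5, against at most 3904 in CTRL libraries. The log2 fold changes were 1.48 (SE 0.244, edgeR adjusted p = 2.89e-06) and 2.88 (SE 0.258, adjusted p = 1.36e-12). The larger value of day 5 goes with the lower CTRL counts of that day, since the CPM were 75.1 ± 12.3 on day 4 and 78.3 ± 10.2 on day 5 (SD, n = 3). H1-6 had 1082, 809, and 842 counts (day 3), 2135, 2077, and 2620 (day 4), and 1799, 1977, and 2478 (day 5), with log2 fold changes of 1.51 (SE 0.164), 2.40 (SE 0.165), and 2.28 (SE 0.164), and edgeR adjusted p of 2.67e-09, 5.87e-15, and 3.14e-15. No ADAR+hnRNPC library overlapped with CTRL in either gene on days 4 and 5.

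H1-10, a linker histone outside the clusters, was at 5252, 4972, and 6205 counts in CTRL and 8430, 9491, and 10187 on day 5 (0.94, SE 0.143, edgeR adjusted p = 3.14e-07), less than a 2-fold change. H2BC11, an H2B gene of the HIST1 cluster with the octamer shown, had 14493, 18483, and 16804 counts in CTRL and 34845, 40759, and 42589 on day 5 (1.41, SE 0.0854, adjusted p = 2.20e-17). In neither gene did the groups overlap. H4C11 was called by a narrow margin (1.01, SE 0.461, adjusted p = 0.0477) on 220, 181, and 344 counts in CTRL and 373, 512, and 449 on day 5. The call was lost without any of CTRL replicates 1 and 2 and ADAR+hnRNPC replicates 1, 2, and 3 of day 5, with adjusted p from 0.059 to 0.16.

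The 4 genes that fell on day 5 were H2BC15, H2BC5, H4C8, and H2BC13. H2BC15 fell from 9469, 10083, and 9901 counts to 4261, 4850, and 4190, close to a 2-fold change (−0.98, SE 0.0993, edgeR adjusted p = 3.17e-11). H2BC5 fell from 25856, 27628, and 26866 counts to 16253, 18093, and 17338 (−0.47, adjusted p = 5.77e-05), H4C8 from 149.6 ± 16.9 to 115 ± 16.5 CPM (SD, n = 3; −0.38, adjusted p = 0.00104), while H2BC13 was at −0.28. H2BC15, which fell, and H2AC25, which rose, hold the same 16 bases of the stem-loop, and the part of the stem-loop in these changes was not tested.

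**Figure D2:**
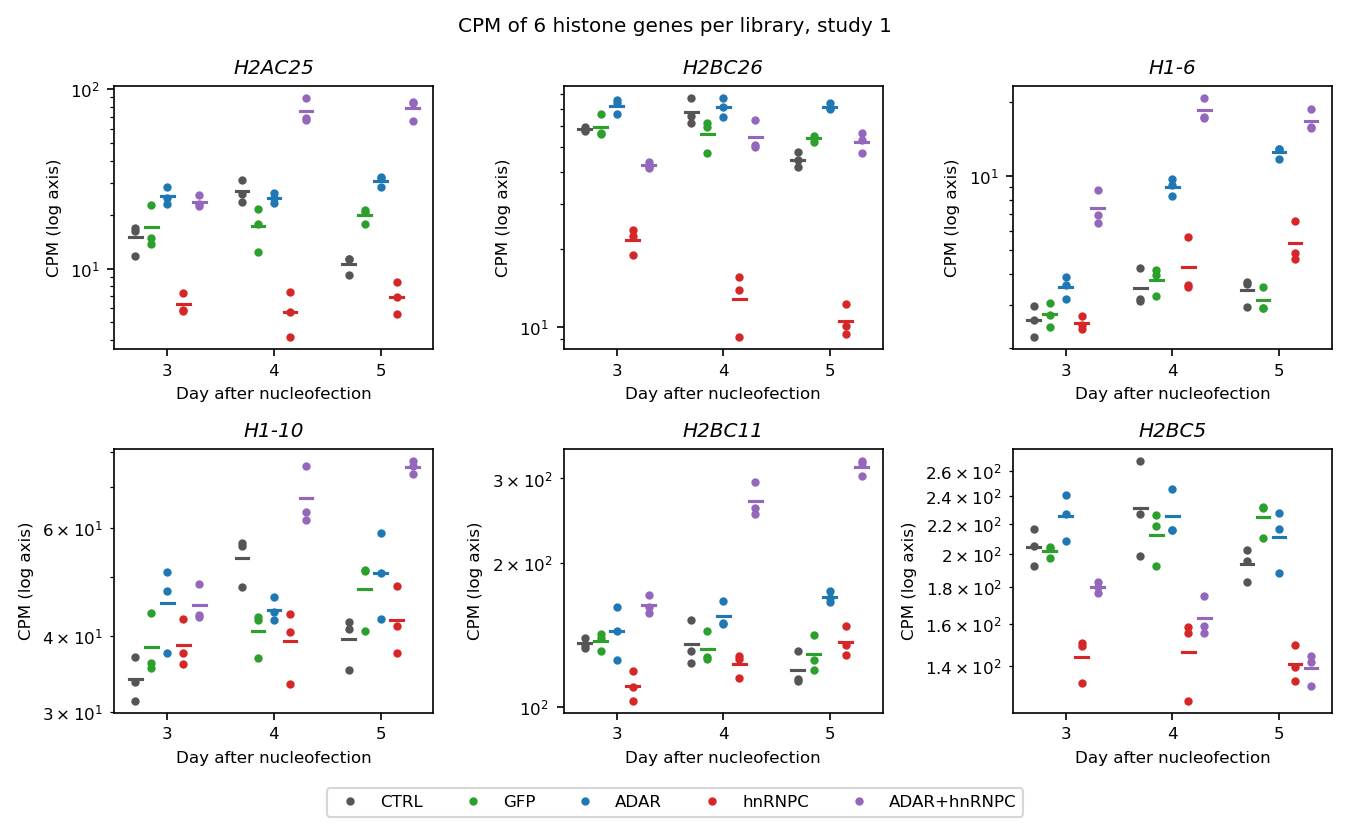
CPM per library, on a log axis, of H2AC25, H2BC26, H1-6, H1-10, H2BC11, and H2BC5 on days 3, 4, and 5, with a colour for each gRNA group and lines through the group means. H2BC26 in hnRNPC-targeted cells lies below CTRL on each day (10.6 against 44.5 CPM on day 5), and H1-6 in ADAR+hnRNPC-targeted cells lies above it (16.8 against 3.45 CPM).

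Whether combined targeting differed from the sum of the single responses was tested by the interaction of ADAR and hnRNPC targeting. On day 3, edgeR called 0 of 24 histone genes (0% of all genes), DESeq2 called 1 and voom 0, and 14 had an unadjusted p under 0.05, all higher than the sum. On day 4, 18 were higher than the sum and 0 lower, where 4.68% of all genes were higher, and 5 were called (0.887% of all genes). On day 5, 11 were higher and 1 lower (23.9 and 23.7% of all genes), and 2 were called (6.15% of all genes). H2AC25 had an interaction of 3.83 on day 4 (SE 0.355, edgeR adjusted p = 2.22e-09) and 1.95 on day 5 (SE 0.349, adjusted p = 1.71e-05), since it fell with hnRNPC targeting and rose with combined targeting. H2BC26 had 2.02 (SE 0.191, adjusted p = 2.97e-09) and 1.62 (SE 0.191, adjusted p = 7.68e-09). It fell with hnRNPC targeting, and with combined targeting its day 5 counts of 5395, 6627, and 7445 overlapped with the 5657, 5884, and 7008 of CTRL (log2 fold change 0.23, adjusted p = 0.120). H2AC6 (1.18), H1-10 (1.06), and H3C12 (1.04) were also called on day 4. Without hnRNPC replicate 1 or ADAR+hnRNPC replicate 3 of day 4, H1-10 was at 0.96 and 3 genes were called, and H3C12 was below 1 without either of these or CTRL replicate 1.

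Responses were also compared between days 3 and 5. For hnRNPC targeting, 8 histone genes had a higher log2 fold change on day 5 than on day 3 and 3 a lower one, where 24.1 and 23.9% of all genes did. Of all 24, edgeR, DESeq2, and voom called 0 (5.46% of all genes by edgeR), and 13 had an unadjusted p under 0.05. Without hnRNPC replicate 1 of day 3 or of day 5, 5 and 4 were higher, and without CTRL replicate 2 of day 3, 1 was called. For combined targeting, 17 were higher and 1 lower (26.5 and 28.0% of all genes), and H2BC11 (1.14), H4C16 (1.21), and H2AC25 (2.22) were called (10.2% of all genes). CTRL cells were also compared between days 5 and 3. Of the 24 genes edgeR, DESeq2, and voom called 0 (0.667% of all genes by edgeR), 7 had an unadjusted p under 0.05, and at an adjusted p of at most 0.05 1 rose (9.95% of all genes) and H2BC26 (−0.39) and H2AC13 (−0.28) fell (15.7% of all genes). Of 6 monocytic markers tested, 5 fell, with LYZ, which encodes lysozyme, at −1.53, and their part in this was not tested.

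Summed over all 38 genes, histone counts were 0.391% ± 0.0269 of gene counts (SD, n = 3) in CTRL cells on day 5. They were 0.362% ± 0.0163 with hnRNPC, 0.484% ± 0.0283 with ADAR, 0.603% ± 0.0188 with ADAR+hnRNPC, and 0.419% ± 0.0168 with GFP targeting. The ADAR+hnRNPC libraries of days 4 and 5, at 0.549 to 0.625%, were above all CTRL libraries of study 1, and the ADAR libraries of day 5 (0.453 to 0.509%) were above the CTRL libraries of that day (0.364 to 0.417%). The sum weights each gene by its counts and was not tested.

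**Figure D3:**
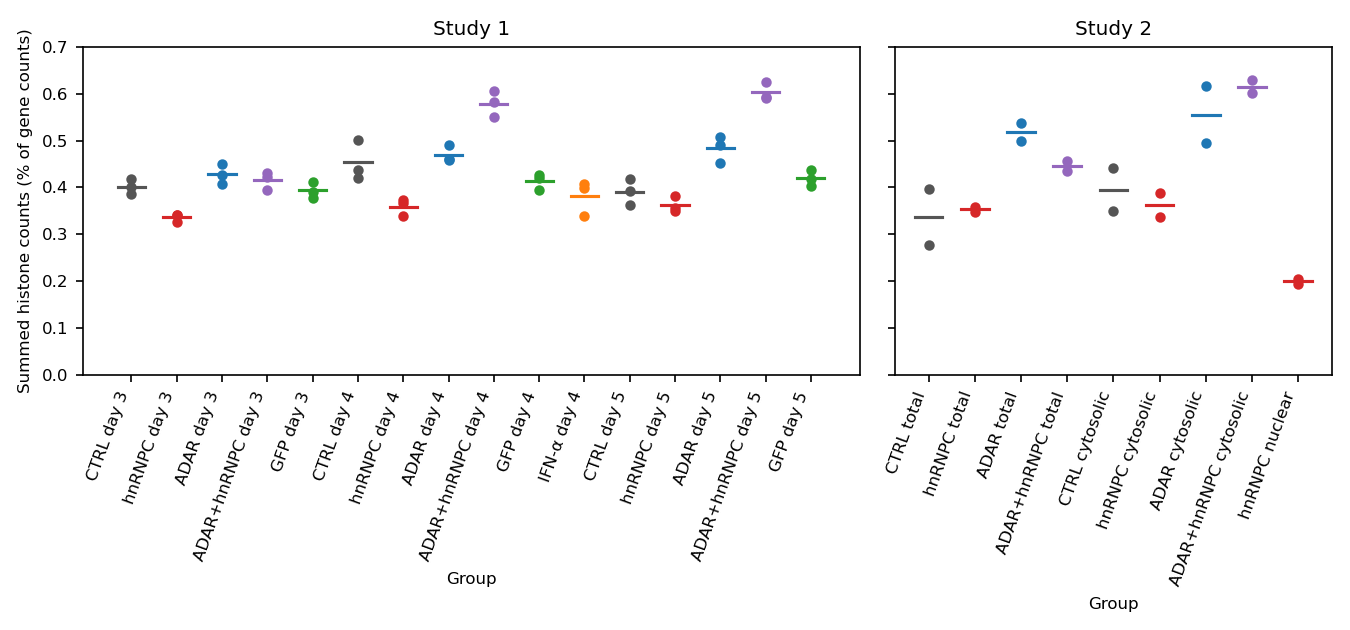
Summed counts of the 38 histone genes as a percent of all gene counts, per library (points) with the group mean (lines), for the groups of both studies. ADAR+hnRNPC-targeted cells reach 0.603% on day 5, and nuclear RNA of hnRNPC-targeted cells is lowest at 0.195 and 0.205%.

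The GFP gRNA is a further control. edgeR, DESeq2, and voom called 0 histone genes on each day, where edgeR called 0.0227, 0, and 0.212% of all genes on days 3, 4, and 5. At an unadjusted p under 0.05 there were 0, 5, and 10 histone genes on these days. All 5 of day 4 were lower than in CTRL, and all 10 of day 5 were higher. The CTRL libraries of day 5 are those that ADAR and combined targeting were compared with as well. On day 5, H2AC25, H2AC13 (0.36), and H2AC6 (0.33), all H2A genes, rose at an adjusted p of at most 0.05, where 5.36% of all genes rose. Each of these rises was less than 2-fold. The absence of calls does not bound the fold changes of genes that did not pass the test.

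With IFN-α, given to CTRL cells, 3 histone genes rose and 11 fell on day 4, where 11.1% of all genes rose and 7.19% fell. edgeR, DESeq2, and voom called 0 of them (1.32% of all genes were called by edgeR), and 15 had an unadjusted p under 0.05. H2BC11 rose from 16510, 19434, and 18529 counts to 21342, 23089, and 23263 (0.60, SE 0.0840, edgeR adjusted p = 1.01e-06), and H1-3 (0.24) rose by less. H4C3 fell from 29524, 38835, and 32544 counts to 17144, 18227, and 17956 (−0.63, SE 0.0940, adjusted p = 4.10e-06). IFN-α replicate 3 stood apart in H2AC25, with 1288 counts against 3057 and 3403, and in H4C11, with 41 against 267 and 257. Without it 7 genes fell, and with the IFN-α and CTRL libraries of day 4 fitted alone 1 rose and 5 fell. H2BC11 thus rose both with IFN-α and with combined targeting, and the comparisons of day 4 share the CTRL libraries.

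In study 2 the 2 CTRL libraries of total RNA differed, with histone shares of 0.397 and 0.276% and H1-5 counts of 46917 and 22523, so results are given with and without each of them. When a library is left out, the single library of the group is assumed to vary like those of the other groups. For hnRNPC targeting, edgeR, DESeq2, and voom called 0 of 28 histone genes (0.733% of all genes by edgeR), 0 passed at an adjusted p of 0.05, where 2.08% of all genes rose and 3.03% fell, and 1 had an unadjusted p under 0.05. H2BC26 was at −0.44 (adjusted p = 0.141) and H2AC25 at −0.46 (adjusted p = 0.381). The median was −0.03, and it was 0.32 without CTRL replicate 1 and −0.27 without CTRL replicate 2, so that its direction depended on these libraries. For ADAR targeting, 17 rose and 0 fell (9.01% of all genes rose), with a median of 0.68 against 0.07 for all genes, and 3 were called (2.93% of all genes). In the same comparison the mitochondrial MT-ND1 (−1.5), the nuclear RNA MALAT1 (−1.15), the mitotic gene MKI67 (−1.14), and TYMS (−1.03), which makes thymidylate for DNA synthesis, were called lower, and their part in the result was not tested. Without CTRL replicate 1, 15 were called, and without CTRL replicate 2, 1 was called and 4 rose. Without ADAR replicate 1 or 2, 6 and 8 rose. For combined targeting, 7 rose and 3 fell (12.4 and 22.2% of all genes), and 2 were called (4.29% of all genes). Without CTRL replicate 1, 15 rose and 0 fell (median 0.63), without CTRL replicate 2, 4 rose and 5 fell (median 0.02), without ADAR+hnRNPC replicate 1, 1 fell, and without ADAR+hnRNPC replicate 2, 4 rose. Without TMM scaling, 14 rose and 1 fell, and the median of all genes shifted up by 0.212, with 696 genes called higher and 42 lower among all genes against 459 and 127.

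H1-6 was called with ADAR and with combined targeting in study 2. It had 455 and 242 counts in CTRL total RNA, 1916 and 1622 in ADAR-targeted, 1476 and 1107 in ADAR+hnRNPC-targeted, and 458 and 512 in hnRNPC-targeted cells. The log2 fold changes were 2.27 (SE 0.208, edgeR adjusted p = 4.62e-06) and 1.94 (SE 0.207, adjusted p = 8.00e-06) with ADAR and with combined targeting, with no overlap of the libraries. H2AC25 had 520 and 492 counts in CTRL, 1464 and 1291 with ADAR, and 1115 and 1401 with combined targeting (1.36, adjusted p = 0.00772, and 1.34, adjusted p = 0.00304). Without CTRL replicate 2 the value of H2AC25 with ADAR targeting was 1.42 (adjusted p = 0.062). H2BC11 was called with ADAR targeting (1.03, SE 0.188, adjusted p = 0.00217) but was at 0.72 without CTRL replicate 2 and at 0.95 in DESeq2. H2BC15 (−0.73), H2BC5 (−0.62), and H2BC18 (−0.50) were the genes that fell with combined targeting in study 2.

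Cytosolic RNA was compared with total RNA over the mean of the 4 gRNA groups. MT-ND1, a mitochondrial transcript, was at −4.97 and the nuclear RNA MALAT1 at −1.20 on the log2 scale, as the fractions are labelled. Of 28 histone genes, 23 were higher in cytosolic RNA and 0 lower, where 49.3% of all genes were higher. edgeR, DESeq2, and voom called 0 (8.89% of all genes by edgeR), and 23 had an unadjusted p under 0.05. Without hnRNPC replicate 1 of total RNA, 1 was called. The median was 0.34 against 0.17 for all genes. The 5 genes that were not higher were H2BC21 (0.45, adjusted p = 0.421) and all 4 H2A genes, of which H2AC25 was at −0.18, H2AC13 at 0.00, H2AC6 at 0.12, and H2AC11 at 0.12. Without TMM scaling 13 were higher, and the median of all genes shifted by −0.128.

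In hnRNPC-targeted cells, cytosolic RNA was also compared with nuclear RNA. Of 28 histone genes 25 were higher in cytosolic RNA and 0 lower (45.2% of all genes were higher), and 15 were called higher (30.5% of all genes were called). The median was 1.09 against 0.27 for all genes. DESeq2 called 6, and the median of all genes shifted by −0.247 under its scaling, with 1019 called higher and 2553 lower among all genes, against 2116 and 2046 in the edgeR fit with TMM. By family the medians were 1.36 for H4, 1.26 for H3, 1.11 for H2B, 0.90 for H1, and 0.38 for H2A. All 7 H1, 9 of 10 H2B, all 3 H3, all 4 H4, and 2 of 4 H2A genes were higher.

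H3C14, an H3 gene of the HIST2 cluster, had 1540 and 1296 counts in cytosolic and 275 and 251 in nuclear RNA (2.35, SE 0.181, edgeR adjusted p = 1.03e-08). With 0% of its windows of 100 or 150 bases unique in the genome, these counts cannot be assigned to H3C14 with certainty. H4C8 had 9067 to 9973 counts in cytosolic and 3488 to 3597 in nuclear RNA (1.34, SE 0.178, adjusted p = 4.65e-06). H2BC12 (1.19), H2BC18 (1.16), and H2BC15 (1.29) followed by p. The values in the 2 fractions did not overlap in H3C14 and H4C8. H2AC25 had 394 and 218 counts in cytosolic and 264 and 196 in nuclear RNA, which overlap (0.35, adjusted p = 0.330), and H2AC6 was at 48.2 ± 11.6 and 37.8 ± 6.33 CPM (SD, n = 2; 0.35, adjusted p = 0.127). H2AC11 (0.41, adjusted p = 0.0300) and H2AC13 (0.52, adjusted p = 0.0181) were the H2A genes that passed. Differences between families were not tested.

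**Figure D4:**
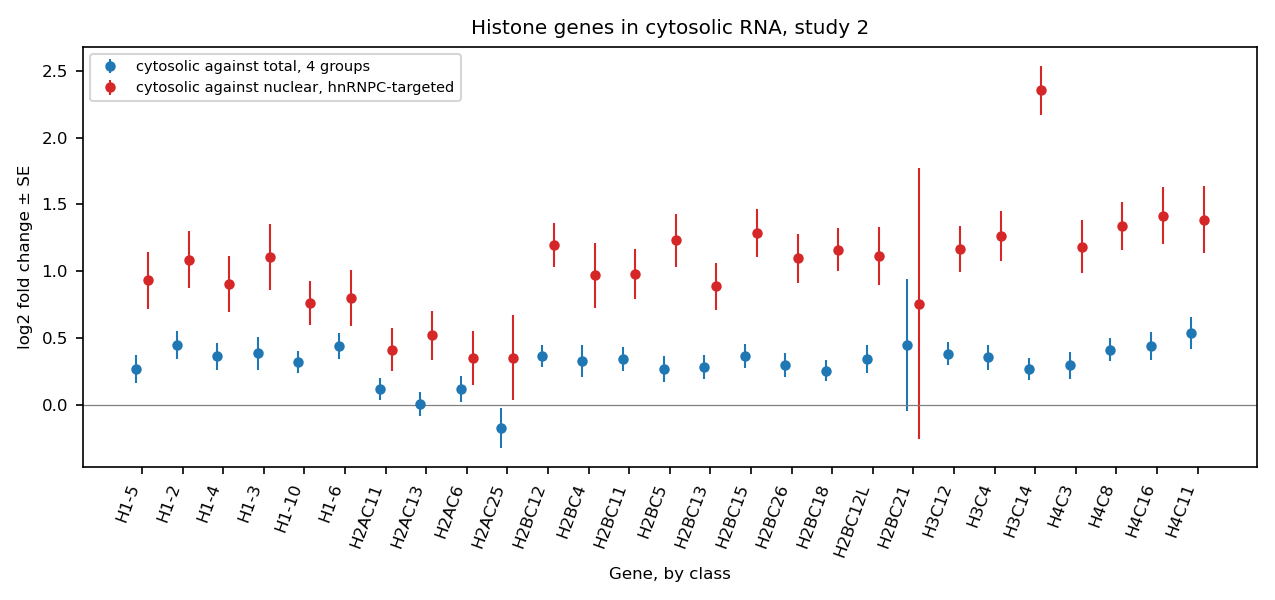
Log2 fold change (points) with its SE (bars) of the histone genes tested in study 2, all but 1 of 28, for cytosolic against total RNA and for cytosolic against nuclear RNA of hnRNPC-targeted cells. H3C14, whose windows were not unique in the genome, has the largest value in the comparison with nuclear RNA (2.35), and the 4 H2A genes lie between 0.35 and 0.52.

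Genes that make, package, or accompany histones were taken from fixed lists. The shares of all genes that rose or fell are those given with the histone genes of each comparison, and in addition 12.6% of all genes rose with hnRNPC targeting on day 3 and 4.78% fell with ADAR targeting on day 5. SLBP, which binds the stem-loop, had log2 fold changes of 0.24, 0.31, and 0.04 (adjusted p = 0.548 on day 5) with hnRNPC targeting and 0.19, 0.07 (adjusted p = 0.296), and −0.33 (adjusted p = 2.31e-06) with combined targeting on days 3, 4, and 5. The rise of SLBP with combined targeting on day 3 was lost without ADAR+hnRNPC replicate 1 or 3 (adjusted p = 0.0515 and 0.0565). It was also lost without the filter on low counts (0.19, edgeR adjusted p = 0.0837). On day 5 SLBP had 20874, 23833, and 24567 counts in CTRL and 16088, 16033, and 16786 with combined targeting. NPAT, the coactivator of histone genes, fell by 0.28, 0.44, and 0.76 with hnRNPC and by 0.33, 0.53, and 0.66 with combined targeting. NPAT was lower with hnRNPC targeting, where more histone genes fell than rose, and on day 5 of combined targeting, where more rose than fell. Its part in the histone values was not tested. Of 11 tested genes of histone mRNA transcription and 3′ end processing, 3 rose and 5 fell with hnRNPC targeting on day 3, 4 rose and 5 fell on day 4, and 3 rose and 4 fell on day 5. With combined targeting 3 rose and 6 fell on day 5, and with ADAR targeting 0 rose and 3 fell.

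Genes of DNA replication, which are on in the same phase as the clustered histone genes, were counted in the same comparisons. With combined targeting on day 5, 16 of 19 fell and 1 rose (median −0.69), while 18 of 24 histone genes rose (median 0.62). RRM2, a subunit of ribonucleotide reductase, was at −1.19 and MCM3, a subunit of the replicative helicase, at −1.14. With ADAR targeting on day 5, 6 of 19 fell and 0 rose (median −0.09). With hnRNPC targeting, 3 fell and 3 rose on day 3 (median 0.02), 4 fell and 4 rose on day 4, and 10 fell and 2 rose on day 5 (median −0.12), with MCM3 at −1.20. Of 12 mitotic genes, 11 fell and 0 rose with combined targeting on day 5 (median −0.56, TOP2A −1.03), and 4 fell and 0 rose with ADAR targeting. With IFN-α 7 of 19 replication genes rose and 0 fell, and in total RNA of study 2 with combined targeting 13 fell and 0 rose. The difference between the lists was not tested.

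**Figure D5:**
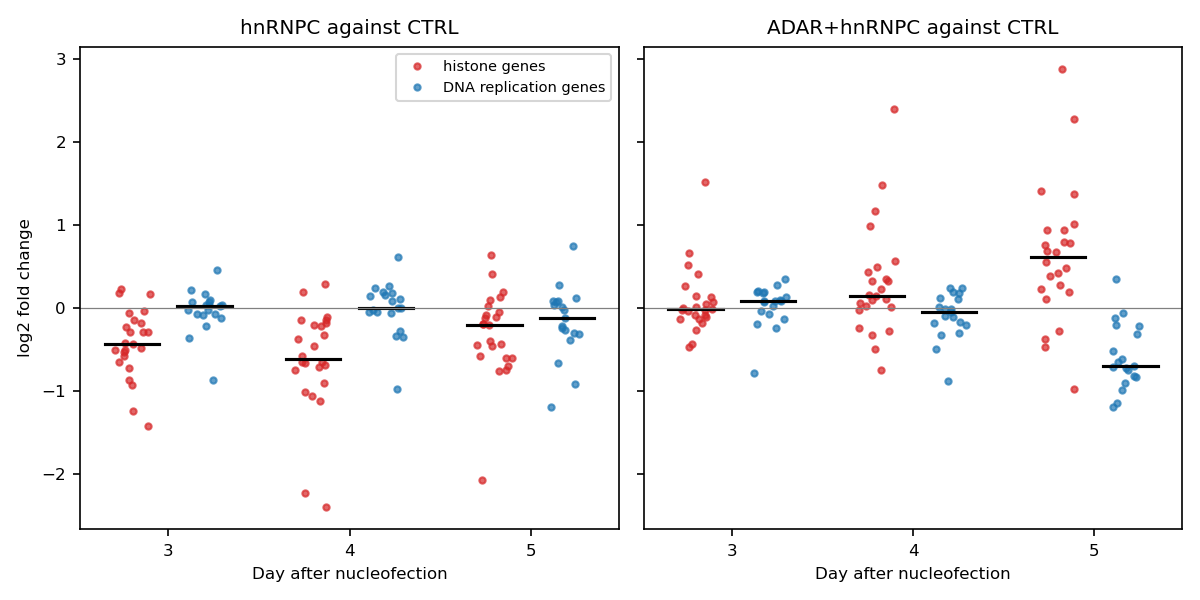
Log2 fold change against CTRL of each histone gene and of each gene of the DNA replication list (points) by day, with the median as a black line, for hnRNPC- and ADAR+hnRNPC-targeted cells of study 1. On day 5 of combined targeting the medians are 0.62 and −0.69.

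Histone variants taken as replication-independent formed another list. The mRNA ends of its genes, H2AX among them, were not checked here. With combined targeting on day 5, 3 of 9 rose and 5 fell (median −0.18). H3-3A, which encodes H3.3, was at −1.36, and H2AZ1 and H2AZ2, which encode H2A.Z, were at −1.16 and −1.04. With hnRNPC targeting 0 of 9 changed on day 3, and H2AX, whose protein marks DNA breaks when phosphorylated, was called higher on day 5 (1.01). Among 8 histone chaperones, 5 fell and 2 rose with combined targeting on day 5 (median −0.31), and HIRA, the chaperone of H3.3, was at 1.30. In cytosolic against nuclear RNA, 8 of 10 variants were higher and 0 lower, with H3-3A at 1.26 and CENPA at 1.29.

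Some histone genes have annotated transcripts that pass the stem-loop and splice to a downstream exon, and the deposited intron counts of study 1 show reads there. In 7 genes an intron of at least 1000 bases started within 200 bases after the stem-loop. These introns were chosen after their values were seen and are given as a description, with no test. In ADAR+hnRNPC-targeted cells on day 5 the CPM of these introns were 1.55 (H2BC15) to 3.14 (H4C8) times those of CTRL. In H4C8 the intron held 35 to 95 counts in CTRL and 189 to 201 in ADAR+hnRNPC libraries, in H2BC5 189 to 234 and 399 to 554, and in H2AC6 281 to 376 and 736 to 863. The ranges did not overlap, and they went up also in H2BC15, H2BC5, and H4C8, whose gene counts fell. Over 55732 introns with at least 0.4 CPM in CTRL, the median ratio was 0.812 and 10.4% had a ratio of at least 1.5. With hnRNPC targeting on day 5 the ratios of the 7 introns were 0.804 to 1.10, and with ADAR targeting 1.03 to 1.37. Ratios of at least 1.5 were seen in other groups and days as well. With combined targeting on day 4 they were 2.11 in H2BC4, 1.76 in H4C8, and 1.54 in H2AC6. On day 3 the intron of H2BC18 was at 2.37 with hnRNPC and 1.66 with ADAR targeting, and that of H4C8 at 1.56 with ADAR targeting. On day 4 that of H4C8 was at 1.59 both with the GFP gRNA and with IFN-α, and that of H2BC4 at 1.56 with IFN-α. Introns of H2BC5, H2BC4, and H2BC18 hold exons of other genes. Those of H2AC6, H2BC15, H4C16, and H2BC18 also hold annotated exon bases of the gene itself, so reads there need not be intronic.

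A-to-I editing was read at sites that lie in histone genes. The tables held 91 such sites in study 1, 74 of them with values in all libraries, at which 0.175 to 2.27% of reads per library carried the edited base. Over all 441306 sites with values in all libraries of study 1, the edited share was 1.47 to 7.04%. CTRL libraries (0.175 to 1.79%) and ADAR libraries (0.758 to 1.33%) overlapped at the sites in histone genes, whereas over all sites they were at 3.47 to 4.08% and 1.47 to 1.74%. H2AC20 held 2753 edited reads of 68668 reads at its sites, the most of the histone genes, but 25 gene counts in all libraries of study 1 together, so these reads are mostly not counted for the gene. Without the sites of H2AC20 at most 1.47% of reads per library were edited, on 342 to 2732 reads. In study 2 there were 17 sites, 11 with values in all libraries, with 0.641 to 13.5% on 126 to 945 reads, and H2AC20 again held most of the reads, with 15 gene counts. The highest value there, 13.5%, was in 1 cytosolic library of hnRNPC-targeted cells, while the other was at 6.07%. Over all sites these libraries were at 7.75 to 8.02%. Total RNA of ADAR+hnRNPC-targeted cells was at 6.09 to 6.51% at the sites in histone genes, and at 2.02 to 2.25% over all sites. The editing-cluster-rich regions that the study defined overlapped with 0 histone genes.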

How the data were processed

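Gene counts of 66 libraries (48 in study 1 and 18 in study 2) were used. Per the methods and the submitters' processing notes, the authors aligned reads to GRCh37 with STAR 2.5.4a and deposited raw counts of uniquely mapped reads over GENCODE exons (featureCounts). The authors also deposited intron counts, counts on editing-cluster-rich regions, and edited and total read counts per editing site, made with bedtools among other tools.

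Here, each study was fitted as a whole in R 4.3.3 with edgeR 4.0.16 (quasi-likelihood test, TMM, genes with an average log2 CPM of at least 0.5, in place of the study's voom), and p-values were adjusted over all 13193 or 13650 genes tested. Genes were called at an adjusted p of at most 0.05 and a log2 fold change of at least 1 in size; counts at an adjusted p of at most 0.05 alone ("rose", "fell") were chosen after values were seen. The SE is the log2 fold change divided by the root of F. CPM carry no prior count. Per the study, libraries of a group came from independent experiments (3 in study 1 and 2 in study 2), and the labels do not say which replicate number belongs to which experiment. DESeq2 1.42.0, limma 3.58.1 (voom), other scalings, no filter, a replicate block, only the groups compared, and leaving out each library were alternatives. The scripts were tested on simulated data.

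Named genes were the 3 highest per family, up to 5 called per direction and main comparison by p, H1-10, SLBP, NPAT, and up to 3 called per list; others named were chosen after their values were seen. Values of 1 histone gene enter the counts and medians but are not reported here. The histone genes and the lists were chosen with earlier results of these data known. Stem-loops were read from GRCh37, and promoters are from RefSeq (GRCh38.p14).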

Additional observations from a re-analysis of the deposited data

Results flagged for a closer look

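The responses that differed between conditions in a test of the difference itself were those of the interaction and of the days. In the interaction of ADAR and hnRNPC targeting, 18 of 24 histone genes passed at an adjusted p of at most 0.05 on day 4 and 12 on day 5 (edgeR quasi-likelihood test). Of all genes, 4.68% were higher than the sum on day 4, and 23.9% were higher and 23.7% lower on day 5. On day 5, 11 of the 12 histone genes were higher than the sum. Only their count over both directions together is thus near the share of all genes. Among all genes, 0.887% were called on day 4 and 6.15% on day 5. On day 4 the called genes were H2AC25 (3.83), H2BC26 (2.02), H2AC6 (1.18), H1-10 (1.06), and H3C12 (1.04), and on day 5 H2AC25 (1.95) and H2BC26 (1.62), all on the log2 scale and all higher than the sum of the single responses. Between days 3 and 5, 11 histone genes passed for hnRNPC targeting and 18 for combined targeting. For hnRNPC targeting 8 of them were higher and 3 lower, where 24.1% of all genes were higher and 23.9% lower. Its count of histone genes over both directions together is thus near the share of all genes. For combined targeting, 26.5% of all genes were higher and 28.0% lower. H2AC25 (2.22), H4C16 (1.21), and H2BC11 (1.14) were called for combined targeting (10.2% of all genes). In H2AC25 the CTRL libraries differ between days (14.9 ± 2.83 CPM for day 3, 26.9 ± 4.05 for day 4, and 10.6 ± 1.24 for day 5; SD, n = 3), and each contrast includes them, and the cause was not tested.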

How the results depend on the processing

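No called gene changed direction under any alternative. Medians changed sign in 5 comparisons. That of hnRNPC targeting in total RNA of study 2 was −0.03 and became 0.32 without CTRL replicate 1, and those of GFP and of combined targeting on day 3, ADAR targeting on day 4, and the hnRNPC response of day 5 against day 3 lay within 0.073 of 0 in the values reported. DESeq2 called 1 histone gene in the interaction on day 3 and 6 in cytosolic against nuclear RNA, and voom called 5 with ADAR targeting in study 2. Without TMM scaling, 14 genes rose and 2 fell with combined targeting on day 4, 14 rose and 1 fell in total RNA of study 2, and 13 were higher in cytosolic than in total RNA. Without the filter on low counts, 5 genes were called with combined targeting on day 4, 2 and 4 in the interaction on days 3 and 5, 1 in cytosolic against total RNA, and 1 in the change of the hnRNPC response between days 3 and 5, where 5 were lower. With only the groups compared, 1 gene rose and 5 fell with IFN-α, 8 rose with ADAR targeting in study 2, and 0 fell with combined targeting there. Summed shares on TMM library sizes were 0.540 and 0.564% with combined targeting on days 4 and 5, 0.384% in its total RNA of study 2, and 0.187% in nuclear RNA. RLE factors changed no count of genes by over 1.5 times.

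Deviations of same-numbered libraries correlated from −0.365 to 0.748 in study 1 (median 0.169, 220 of 360 pairs above 0.1). In study 2 they correlated from −0.336 to 0.445 (median 0.153, 44 of 72 pairs above 0.1). The medians were above 0 but the values spread widely. Pairing by number was thus left unsettled, and the main fit did not use it. With the replicate number as a block, 1 gene was called in the interaction on day 3, H4C11 with combined targeting on day 5 was at 0.99 and no longer called, and the number of called genes differed by at most 1 in the other comparisons.

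When each library was left out in turn, the genes called ranged from 3 to 6 with hnRNPC targeting on day 4, 3 to 6 in the interaction on day 4, 0 to 1 in the hnRNPC response of day 5 against day 3, 1 to 15 with ADAR targeting in study 2, and 0 to 1 in cytosolic against total RNA. Genes that rose ranged from 2 to 5 with combined targeting on day 3, 10 to 16 with ADAR targeting on day 5, 4 to 10 in the hnRNPC response of day 5 against day 3, and 4 to 23 and 4 to 15 with ADAR and combined targeting in study 2. Genes that fell ranged from 2 to 5 with combined targeting on day 4, 7 to 11 with IFN-α, and 0 to 5 with combined targeting in study 2. The low counts of combined targeting on days 3 and 4 came without CTRL replicate 3 of day 3 (2 rose) and without CTRL replicate 1 or ADAR+hnRNPC replicate 1 of day 4 (2 fell), and the 2 CTRL libraries of total RNA set the range in study 2. Low counts also limit precision, as in H4C11 (SE 0.461 with combined targeting on day 5).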
